A study of Mus musculus with 3 samples.

Results

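Endothelial cells that carried transcripts of both Csf2 and Inhbb were found almost only in mouse lungs taken 6 h after melanoma cells had been injected. They made up 57 of 10583 endothelial cells in that library, 1 of 9278 at 30 h and 0 of 11231 in the control, which gives 58 of the 31092 endothelial cells of the series. Csf2 encodes GM-CSF, a secreted cytokine that drives the growth and activation of myeloid cells. Inhbb encodes the beta B subunit of activin B and inhibin B, ligands of the TGF-beta family. The cells were chosen by their own counts: 1000 to 5000 detected genes, less than 20% mitochondrial reads, at least 2 unique molecular identifiers (UMIs, counted transcripts) of the endothelial genes Pecam1 and Cdh5 together, and at least 1 UMI each of Csf2 and Inhbb. The levels of Csf2 and Inhbb in them are therefore a description and not a finding. Every other gene was read in the same cells of the same library, so those differences are descriptions too and carry no test.

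The study asked how the endothelium of the lung changes while circulating melanoma cells first lodge there. Wild-type C57BL/6 mice received 200000 B16-F10 cells, a mouse skin melanoma line labelled with a green tracker dye, in 100 µl of PBS through the tail vein, or PBS alone in the control. Lungs were taken after 6 h (control and B16F10) or 30 h (B16F10). Pecam1-positive, Ptprc-negative cells were sorted for droplet single-cell RNA sequencing of transcript 3′ ends. By the paper, tracked melanoma cells were also collected from lungs of mice injected with them. Each condition is 1 library, pooled from 2 mice per treatment by the labels, and the study's methods give another number of mice. There is thus no replicate error: the 95% intervals given here cover counting error only, and library, mouse pool and condition cannot be told apart. The libraries held 124085451 to 140601123 UMIs, and 9513 to 11506 barcodes passed the limits on genes and mitochondrial reads. Between 22 and 38 endothelial barcodes were shared by each pair of libraries, and none of the 57 double-positive cells was among them.

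Lung capillaries hold general capillary cells (gCap), which regulate blood flow and renew the bed, and aerocytes (aCap), broad thin cells of the gas exchange surface. Activated endothelium is known to produce cytokines, adhesion molecules and growth factors within hours of a stimulus, through transcription factors such as NF-kB and AP-1, and many of these transcripts decay fast. Csf2 is a textbook case of such decay, which its AU-rich element brings about. The gene lies at chr11:54247271-54249667 on the minus strand (GRCm38, GENCODE M21). Its 3′ UTR of 317 bases holds 9 copies of ATTTA and 4 of TTATTTATT, overlaps counted, and bases 237 to 266 of it are shown because they hold the longest run of 5 overlapping ATTTA copies, in capitals:
Csf2 AU-rich site: atATTTATTTATTTATTTATTTAtttttgc
The motif TTATTTATT was in 1218 of 19526 mouse 3′ UTRs (6.24%), and Inhbb (chr1:119415465-119422248, minus strand) had none in 1857 bases. Promoters are shown for both genes that define the cells, and for Sele and Nfkbia, which were higher in them. These are the 250 bases before the RefSeq start (GRCm38.p6), with matches to AP-1 (TGANTCA), NF-kB (GGG, any 3 bases, then TTCC) or TATAAA, on either strand, in capitals.
Csf2, chr11:54249900-54250149, minus strand: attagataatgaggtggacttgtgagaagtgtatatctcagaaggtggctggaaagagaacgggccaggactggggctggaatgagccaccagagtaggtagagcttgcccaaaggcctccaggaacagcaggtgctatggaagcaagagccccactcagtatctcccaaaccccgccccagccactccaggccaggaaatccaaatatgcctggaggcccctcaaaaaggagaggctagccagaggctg
Inhbb, chr1:119422249-119422498, minus strand: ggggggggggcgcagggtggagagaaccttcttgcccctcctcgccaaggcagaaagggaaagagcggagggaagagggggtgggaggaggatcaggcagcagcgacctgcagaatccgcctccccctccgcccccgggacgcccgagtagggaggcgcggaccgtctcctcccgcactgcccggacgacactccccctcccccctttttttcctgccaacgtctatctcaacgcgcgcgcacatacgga
Sele, chr1:164047984-164048233, plus strand: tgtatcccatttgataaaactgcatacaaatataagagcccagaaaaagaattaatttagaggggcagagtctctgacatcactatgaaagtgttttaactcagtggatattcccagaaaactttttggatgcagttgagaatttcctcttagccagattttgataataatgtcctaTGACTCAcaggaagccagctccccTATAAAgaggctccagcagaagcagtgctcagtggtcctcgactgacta
Nfkbia, chr12:55492648-55492897, minus strand: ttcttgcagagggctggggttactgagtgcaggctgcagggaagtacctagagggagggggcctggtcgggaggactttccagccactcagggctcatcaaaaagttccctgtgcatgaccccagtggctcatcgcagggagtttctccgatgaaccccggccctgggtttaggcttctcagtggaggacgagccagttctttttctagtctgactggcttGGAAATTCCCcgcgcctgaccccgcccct
The Csf2 and Inhbb windows held none of these letters. The RefSeq start of Csf2 is upstream of the GENCODE start, so this window covers few of the bases just before the GENCODE start. Sele held an AP-1 match 73 bases and a TATAAA match 49 bases before its start, and Nfkbia an NF-kB match 29 bases before its start. Over all 32851 mouse promoter windows, 6.75% held the AP-1 letters, 4.65% the NF-kB letters and 12.4% TATAAA. Of the 20 genes with the highest ratio in double-positive cells, given below, 10 had a window. Of their 15 windows 3 held the AP-1 letters, 1 the NF-kB letters and 1 TATAAA. For the 10 lowest genes the numbers were 2, 0 and 1 of 14 windows.

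The double-positive share at 6 h was 0.539% of endothelial cells (95% Clopper-Pearson interval 0.408 to 0.697%). At 30 h the share was 0.0108% (0.000273 to 0.0600%). The control had 0 of 11231 cells, an interval of 0 to 0.0328%, and 3 counts in place of 0 would be 0.0267%. The 6 h interval lay above both others, which is description only, since the cells were chosen with earlier results of these data known. With every cell thinned to 2000 UMIs, 28 of 10386 cells were double-positive at 6 h (0.270%), against 0 of 11036 in the control and 0 of 9167 at 30 h. Thinning left out 197, 195 and 111 shallower cells. Csf2 was seen in 108 of 10583 endothelial cells at 6 h, 57 of them with Inhbb, in 8 control cells and in 3 at 30 h. Inhbb without Csf2 was more widespread, with 7.13% of endothelial cells at 6 h (755 cells), 2.30% in the control (258) and 3.76% at 30 h (349).

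**Figure D1:**
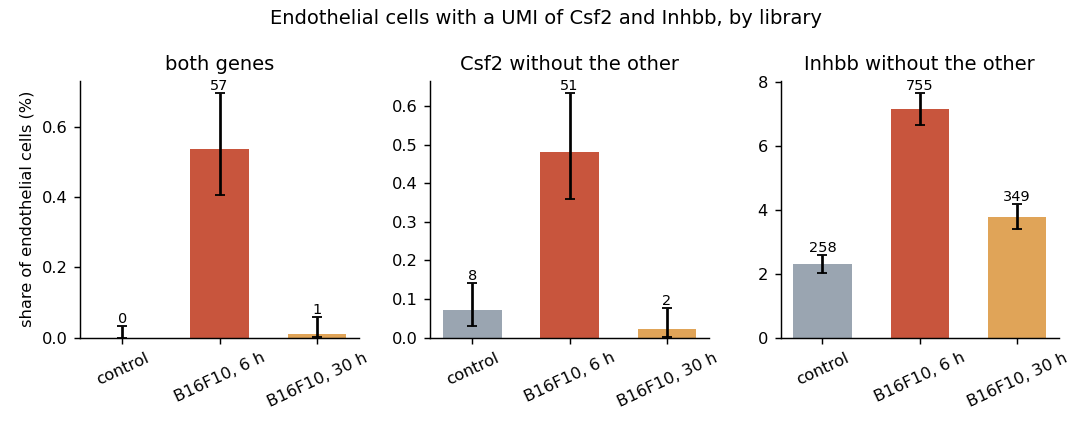
Share of endothelial cells (%, bars from 0) with UMIs of both genes, of Csf2 without Inhbb and of Inhbb without Csf2 in the 3 libraries, with 95% Clopper-Pearson intervals and the number of cells above each bar. Both classes with Csf2 were above the other libraries at 6 h, and double-positive cells numbered 0, 57 and 1.

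At 6 h Csf2 was seen more often in cells with Inhbb than in cells without it. This is description only, since the same UMIs defined the double-positive cells. Csf2 was found in 57 of 812 cells with Inhbb (7.02%, 5.36 to 9.0%) and in 51 of 9771 cells without it (0.522%, 0.389 to 0.686%). The share with Csf2 was 3.24% of cells with 1 Inhbb UMI, 3.65% with 2, 7.09% with 3 to 5 and 25% with 6 or more (29 of 116 cells, 17.4 to 33.9%). The intervals of the lowest classes overlapped, and the highest class lay above all others. After thinning to equal depth the shares were 7.69% of 364 cells with Inhbb and 0.339% of 10022 without. In the control, none of 258 cells with Inhbb held Csf2, an interval of 0 to 1.42%, and at 30 h 1 of 350 did.

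Among the 57 cells, Csf2 ranged from 1 UMI through a median of 5 to 79, and Inhbb from 1 through 6 to 27. Csf2 was spread unevenly, since the 5 highest cells held 43.8% of its 669 UMIs. A single Csf2 UMI was counted in 19 cells, a single Inhbb UMI in 14 and a single UMI of each in 7, and 31 cells held at least 2 of both. The cells were somewhat deeper than those with neither gene, with a median of 9913 UMIs against 7942.5. Barcodes with at most 50 UMIs, which hold free RNA rather than cells, gave 11.2 CPM (UMIs per 1000000 UMIs) of Csf2 and 18.9 CPM of Inhbb at 6 h. A droplet of the median depth filled with that RNA alone would hold 0.111 Csf2 and 0.187 Inhbb UMIs, and the choice of cells itself required at least 1 of each. Barcodes that passed the other limits with less than 2 UMIs of Pecam1 and Cdh5, with a median of 2632 UMIs, held both genes in 0 of 345, an interval of 0 to 1.06%. The 30 h cell held 2 Csf2 and 1 Inhbb UMIs with 6 of Pdgfa and none of Hbegf or Fosl1.

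**Figure D2:**
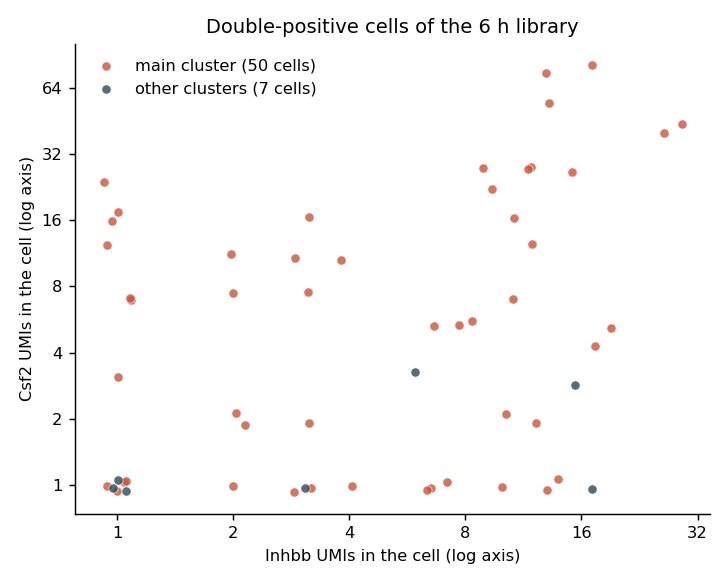
Csf2 against Inhbb UMIs in each of the 57 double-positive cells of the 6 h library on log axes, with slight jitter and coloured by cluster. The 50 cells of the main cluster span 1 to 79 Csf2 UMIs, and 5 of the 7 cells elsewhere hold a single Csf2 UMI.

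Endothelial markers were present in the cells, which the choice of barcodes in part requires. The 8 pan-endothelial markers summed to 5821 CPM in the double-positive cells and 6479 CPM in the 6 h endothelial cells with neither gene, the reference used from here on. Cldn5, a tight junction gene, made up much of the first sum (3054 against 1987 CPM). Of the 8 markers 6 had a log2 ratio below 0, Tek and Emcn at least 2-fold lower, and the median was -0.72. The named markers Hbegf, Pdgfa and Fosl1 were present in most of them: 49, 49 and 42 of the 57 cells held a UMI, 54 held at least 1 of the 3, and 35 held all 5 genes. Only 3 cells had none of Hbegf, Pdgfa and Fosl1. In the whole 6 h library Hbegf, Pdgfa and Fosl1 met in 147 endothelial cells (1.39%), of which 35 were double-positive, 83 had Inhbb only, 5 Csf2 only and 24 neither. The same combination was found in 6 control cells and 3 cells at 30 h. Of the reactive capillary genes Pim3, Bcl3 and Tmem252, all 3 were held by 11 of the 57 cells (19.3%), by 25% of cells with Inhbb only and by 9.59% of cells with neither.

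Gene levels were compared as CPM of summed UMIs, and differences are given as the log2 ratio of CPM + 5, which understates the change of low genes. Of 6807 genes averaging 20 CPM or more across both sums, 660 (9.7%) were at least 2-fold higher in double-positive cells and 922 (13.5%) at least 2-fold lower. The median gene stood at a log2 ratio of -0.10, and with median ratio scaling, which set it near 0, the numbers were 793 and 781. The intervals of all 660 and all 922 genes lay beyond 0, which the limits on level and ratio bring about by themselves at this depth. Genes low in the reference could pass this limit only through the double-positive cells. With the limit set on the reference alone, a choice made after seeing the data, 436 of 6899 genes (6.32%) were higher and 1175 (17.0%) lower. Counts for gene lists are to be read beside these shares. Lists whose number of higher genes differed by more than 1 under the reference limit have both values.

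Fosl1, an AP-1 subunit (chr19:5447547-5455946), had the highest ratio. It reached 319 CPM in double-positive cells and 3.09 CPM in the reference, a log2 ratio of 5.33 (5.04 to 5.61). Thinned to equal depth, 40.0% of double-positive cells held Fosl1 against 0.514% of the reference. Pdgfa, a ligand of PDGF receptors (chr5:138976014-138997370), was at 1366 against 39.5 CPM, a log2 ratio of 4.95 (4.83 to 5.06). Hbegf, a membrane-bound ligand of the EGF receptor, was at 980 against 35.7 CPM, a log2 ratio of 4.60 (4.46 to 4.73). Per cell, Pdgfa ran from 0 through a median of 9 to 72 UMIs, Hbegf from 0 through 5 to 48 and Fosl1 from 0 through 2 to 18.

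The other genes of the 20 highest fell into a few kinds. Transcription factors were Myc, a driver of growth programmes, at 242 against 3.51 CPM, and Sox9 at 157 against 1.39 CPM. Only 20 of the 57 cells held Sox9, and 3 cells carried 42.5% of its 87 UMIs. Noct, a circadian phosphatase, was at 364 against 6.74 CPM. Among genes of the cytoskeleton, Tubb6 and Tuba1c, which encode tubulins, were at 467 against 7.15 CPM and 336 against 6.29 CPM, and Rnd1, a small GTPase that loosens the actin cytoskeleton, was at 321 against 11.6 CPM. Akap12, a scaffold protein that anchors protein kinase A, was held by all 57 cells with a median of 42 UMIs and reached 5311 against 330 CPM. Odc1, the first enzyme of polyamine synthesis and a known target of Myc, was at 895 against 55.4 CPM. Mt2, a metallothionein, Abcb1b, a drug efflux pump, and Cd82, a tetraspanin, had log2 ratios of 4.64, 4.43 and 3.90. Adamts4, a matrix protease, and Sele, the adhesion molecule E-selectin, had 4.26 and 3.65. Sele was uneven, with 60 UMIs in 11 of the 57 cells. Prag1, Kcne3 and Bean1 had 4.26, 4.01 and 3.96.

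Summed over cells with only 1 of the 2 genes, the levels of these 20 genes were intermediate. The genes were chosen as the highest in the double-positive cells, a choice that fixes the upper end. In all 20, cells with only 1 of the 2 genes stood between the reference and the double-positive cells, and in 19 after thinning or without barcodes holding RNA of other cells. Of all 6807 genes 48.1% were above the reference in cells with Inhbb only and 47.7% in cells with Csf2 only. The full order was not counted over all genes. Among the 10 lowest genes 5 were in the reverse order. Fosl1 was at 3.09 CPM with neither gene, 46.3 CPM with Inhbb only, 69.5 CPM with Csf2 only and 319 CPM with both. Pdgfa went from 39.5 through 214 and 386 to 1366 CPM in the same order, and Tubb6 from 7.15 through 95.6 and 114 to 467 CPM. These are sums over unlike cells and not levels of each cell. Fosl1 was held by 15.4% of cells with Inhbb only, 15.7% with Csf2 only and 73.7% with both. The main cluster of the double-positive cells, described below, held 163 of the 755 cells with Inhbb only and 10 of the 51 with Csf2 only. Double-positive cells with a single UMI of either gene differed from those with at least 2 of both by less than 1.5 times in 15 of the 20 genes: Tubb6 was at 462 and 471 CPM and Fosl1 at 285 and 344 CPM. Mt2, at 138 and 446 CPM, Pdgfa, at 988 and 1637 CPM, Sox9, at 108 and 192 CPM, and Kcne3, at 121 and 58.9 CPM, differed more, as did Sele.

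**Figure D3:**
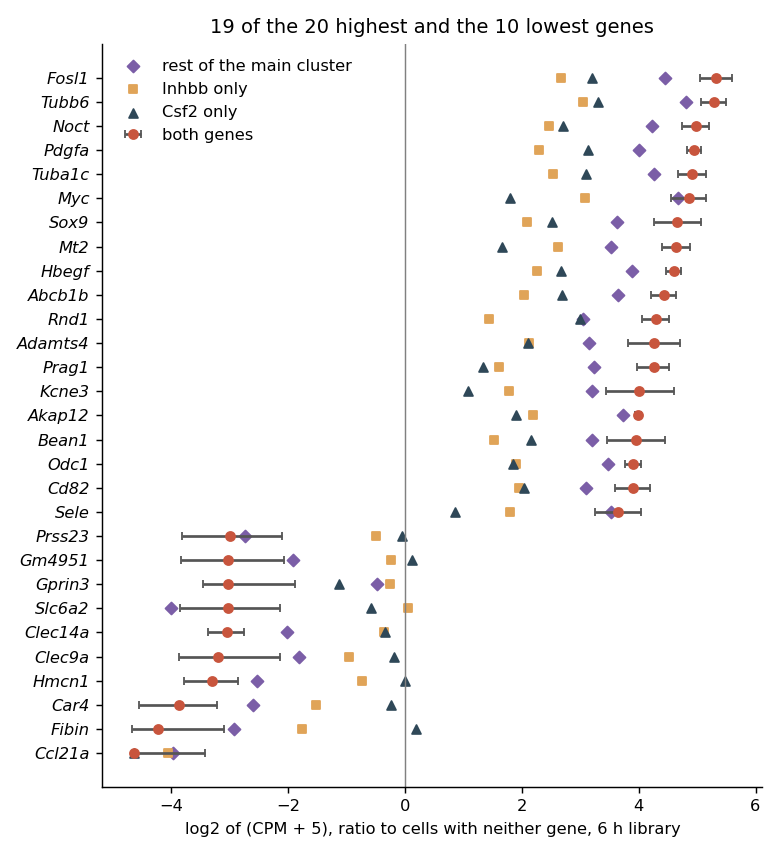
Log2 ratio of CPM + 5 to cells with neither gene for 19 of the 20 highest and the 10 lowest genes of the double-positive cells (circles with 95% counting intervals), the rest of the main cluster (diamonds), Inhbb only (squares) and Csf2 only (triangles), all from the 6 h library. For the 19 high genes shown the single-gene cells lie between 0 and the double-positive cells.

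The 10 lowest genes included markers of lymphatic vessels, aCap and veins. Ccl21a, a lymphatic chemokine, was absent from the double-positive cells and at 120 CPM in the reference, at least 22.2-fold lower against a floor of 3 UMIs over the 57 cells. Only 3.46% of reference cells held Ccl21a. It was also low in other cells, at 0 CPM with Csf2 only, 2.5 with Inhbb only and 2.9 in the rest of the main cluster. The log2 ratio of Ccl21a was 0.60 once barcodes from 300 genes and without upper limit were included. The aCap markers Fibin and Car4 (carbonic anhydrase 4) had 1 and 14 UMIs, log2 ratios of -4.24 and -3.87, and the vein markers Slc6a2 and Prss23 had 5 UMIs each. Clec14a, an endothelial lectin of vessel growth, was at 153 against 1311 CPM and seen in 24 of the 57 cells. Hmcn1, Clec9a, Gprin3 and Gm4951 had log2 ratios between -3.31 and -3.02. With cells of the gCap-scored clusters as the reference (6020 cells with neither gene), the log2 ratio of Slc6a2 was 0.05, and 8 of the 10 genes stayed at least 2-fold lower.

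**Figure D4:**
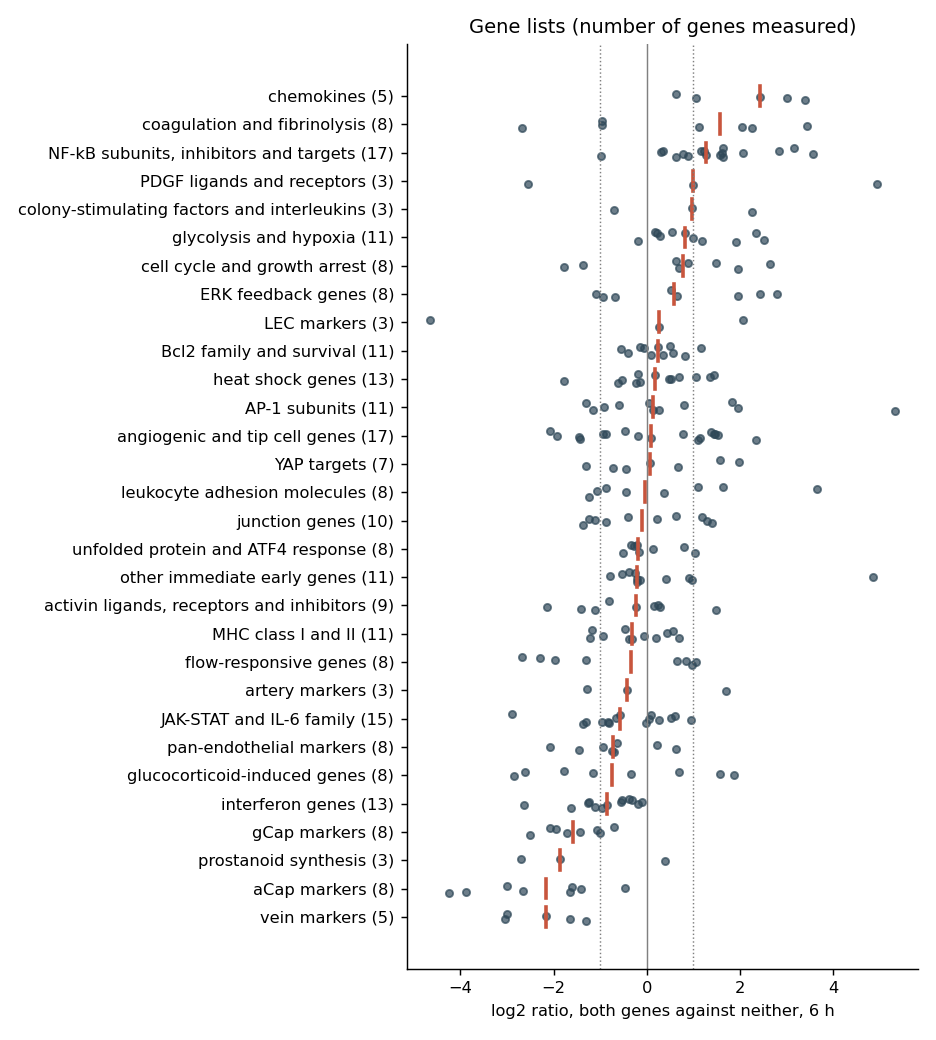
Log2 ratio between double-positive cells and cells with neither gene at 6 h for the measured genes (dots) of each list, with the median of the whole list (bars) and dotted lines at 2-fold. Response and vessel type lists with at least 3 measured genes are shown. Genes low in the reference are shown only where they were high in the double-positive cells, and the vein and aCap genes lie mostly below 0.

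The receptor genes for GM-CSF were low. Csf2ra, the ligand-binding chain, had 6 UMIs in 10.5% of the 57 cells and was found in 1.08% of the reference (10.8 against 1.55 CPM, a log2 ratio of 1.27, 0.44 to 2.16), and Csf2rb and Csf2rb2, the signalling chains, had 0, so none passed the limit of 20 CPM. Among 20 colony-stimulating factors and interleukins, 3 passed. Csf1, which supports macrophages, was 2-fold or more higher at 491 against 98.3 CPM, while Kitl (stem cell factor) was at a log2 ratio of 0.97 and Tnfsf10 (TRAIL) at -0.71. Tnf and Lif, chosen after their values were seen, were too low for the limit but had 19 UMIs in 10 cells (34.3 against 0.480 CPM) and 11 UMIs in 7 cells (19.8 against 0.354 CPM). Il6, Il1a, Il33 and Csf3 had 0 UMIs.

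Of 12 genes of EGF receptor ligands and receptors only Hbegf passed the limit, and its receptor gene Egfr had 0 UMIs. Pdgfb stood at 518 against 257 CPM and Pdgfd, at 27.1 against 184 CPM, was lower with a log2 ratio of -2.56. Of 16 activin pathway genes 9 passed: Smad4, the common mediator of TGF-beta family signals, was 2-fold or more higher (366 against 128 CPM), and 3 were lower, namely the type II receptor Acvr2a (23.4 against 56.7 CPM), the co-receptor Tgfbr3 (25.3 against 128 CPM) and the inhibitory Smad7 (218 against 594 CPM). Inha and Inhba, whose products pair with beta subunits, had 0 UMIs each. The list's median was -0.24, beside -0.10 over all genes. Under the reference limit 1 of 10 was higher and 4 were lower, with a median of -0.53 beside -0.21 over all genes.

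In the NF-kB list 11 of 17 measured members were at least 2-fold higher and none 2-fold lower, beside 9.7% and 13.5% of all genes, with a median log2 ratio of 1.27. Under the reference limit 9 of 15 were higher, with a median of 1.22. Between settings the count ran from 4 with a mean limit of 100 CPM (270 of all 2112 genes higher) to 14 after thinning (833 of 6767). It was 9 without barcodes holding RNA of other cells (711 of 6793) or with the wide limits on genes per barcode (498 of 7009). With at least 2 UMIs of each gene it was 13 (749 of 6782). The list members measured under each of these settings were not counted. Tnip1, Tnfaip3 and Nfkbia, which encode inhibitors of the pathway, were at 343 against 24.4, 162 against 18.6 and 2195 against 522 CPM. Tnfaip2, a TNF-induced gene, was at 101 against 6.98 CPM. In promoters of the list's 11 higher genes, 9 of which had a window, the NF-kB letters were found for Nfkb2, Nfkbia, Tnfaip3 and Tnip1, and the list was itself drawn up as NF-kB genes. Of 5 measured chemokines 4 were higher, and 2 of 3 under the reference limit, the membrane-bound Cxcl16 (700 against 61.8 CPM) and Cx3cl1 (319 against 35.3 CPM). Cxcl2 and Cxcl10, with 25 and 18 UMIs in 6 cells each, passed the limit on the mean only through the double-positive cells (4.28 and 13.1 CPM in the reference). Cxcl10 was at -0.34 in the cells with at least 2 UMIs of both genes. Of 8 leukocyte adhesion genes Sele, Icam1 (1084 against 344 CPM) and Vcam1 (132 against 58.8 CPM) were higher, and Icam2 and Cd47 lower (log2 ratios of -1.08 and -1.25). Vcam1 was at -0.11 with the wider limits on genes per barcode.

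AP-1 subunits were split. Fosl1, Fosl2 (93.8 against 20.6 CPM) and Maff (141 against 36.2 CPM) were higher, and Fos (958 against 2365 CPM) and Fosb (193 against 439 CPM) lower, among 11 measured. Of 11 other immediate early genes only Myc passed 2-fold, and the median was -0.20. Feedback genes of ERK signalling had 3 higher and 1 lower of 8, and 2 and 2 of 8 under the reference limit. They included Spry4, Phlda1 and Dusp5, higher with log2 ratios of 2.78, 2.42 and 1.95, and Dusp6 at -1.09. In the JAK-STAT and IL-6 family list none of 15 was higher and 3 were lower, beside 13.5% of all genes: the receptor Lifr (-2.88), the inhibitor Socs3 (-1.37) and Stat5b (-1.31). Of 13 interferon genes 5 were lower, such as the GTPase Iigp1 at 55.9 against 371 CPM, none was higher and 8 did not pass 2-fold, with a median of -0.86. With the wide limits on genes per barcode 2 were lower, beside 448 of all 7009 genes. With a mean limit of 100 CPM 1 was lower, beside 307 of 2112. Without the highest doublet scores 7 were lower (988 of 6793 genes), as with cells of the gCap-scored clusters as the reference (917 of 6758).

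In coagulation and fibrinolysis 5 of 8 were higher, beside 9.7% of all genes, and 4 of the 7 under the reference limit, which Procr did not pass. They included Procr, the protein C receptor (84.8 against 3.26 CPM), the urokinase receptor Plaur (796 against 164 CPM), Plat (tissue plasminogen activator) and F2r (thrombin receptor), while Thbd, thrombomodulin, was lower at 116 against 765 CPM. Genes raised by steady blood flow included Klf2 (355 against 1752 CPM) and Klf4 (308 against 1226 CPM), both transcription factors of quiescence, and 4 of 8 measured were lower and 1 higher, with a median of -0.33. Under the reference limit, which Cyp1a1 did not pass (41.5 against 18.8 CPM, in 3 cells), 4 of 7 were lower and 1 higher, with a median of -1.30. Among 17 angiogenic genes 7 were higher and 4 lower, and under the reference limit 4 and 4 of 14 with a median of -0.34: Pfkfb3, a glycolytic activator, and Col4a1, a basement membrane collagen, had log2 ratios of 2.34 and 1.52, and Nrp1, Aplnr, Tek and Kdr, which encode receptors, were lower. The glycolysis list had 4 of 11 higher, with a median of 0.81, among them the glucose transporter Slc2a1 (79.4 against 9.75 CPM). Under the reference limit, which Slc2a1 did not pass, 3 of 11 were higher and 1 lower, with a median of 0.54. Of 3 measured prostanoid genes, the prostaglandin-degrading Hpgd (734 against 4793 CPM) and Ptgs1 (25.3 against 106 CPM) were lower. Glucocorticoid-induced genes had 2 higher and 4 lower of 8, such as Tsc22d3 at 18.0 against 136 CPM.

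The remaining lists are given as higher and lower genes, beside 9.7% and 13.5% of all genes. Heat shock genes had 3 higher and 1 lower of 13, junction genes 3 and 3 of 10, Bcl2 family genes 1 and 0 of 11, cell cycle genes 3 and 2 of 8, YAP targets 2 and 1 of 7, unfolded protein genes 1 and 0 of 8 and MHC genes 0 and 2 of 11. The medians of these lists lay between -0.31 and 0.79. Of 43 rCap markers, chosen by the study on cells that included these libraries and so no independent evidence, 38 were measured. The list does not hold Tmem252, Adamts9 and Inhbb, which the paper also names as top rCap markers. In double-positive cells 14 were higher and 2 lower, with a median of 0.39 (10 and 2 of 35 under the reference limit, with a median of 0.29), and in cells with Inhbb only the median of the same genes was 0.66. Pim3 was at 157 against 151 CPM, and the marker Scarb1 at 81.2 against 131 CPM with 255 CPM in cells with Inhbb only.

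By vessel type, the double-positive cells were low in most markers. Summed gCap markers were at 1952 against 5171 CPM, with 7 of 8 at least 2-fold lower (4 without barcodes holding RNA of other cells, and 5 with a depth-weighted reference or median ratio scaling), and Gpihbp1, which holds lipoprotein lipase on capillaries, was still seen in 51 of 57 cells (617 against 1009 CPM). The aCap markers summed to 346 against 1743 CPM, vein markers to 77.6 against 479 CPM and artery markers to 211 against 196 CPM. The reference mixes all vessel types. In the rest of the main cluster aCap and vein markers were at 452 and 53.7 CPM, and in cells with Inhbb only at 698 and 376 CPM. The 6 lymphatic markers summed to 4456 against 1260 CPM, most of it from Lyve1. Lyve1 was in all 57 cells with a median of 43 UMIs (4396 against 1054 CPM), and Flt4 was at 57.7 against 47.4 CPM. Lyve1 was also held by 81.3% of the reference and 95.6% of cells with Inhbb only. It was at 2325 CPM with Inhbb only and 3484 CPM in the rest of the main cluster. The lymphatic genes Prox1, Reln and Ccl21a had 0 UMIs, and Mmrn1 did not pass the limit of 20 CPM.

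Markers of other cells moved as follows. T, NK and innate lymphoid (10 genes), B cell (6) and mast cell and basophil markers (6) had 0 UMIs in the 57 cells. The sort removes Ptprc-positive cells, and these lists were also low in the reference, at 5.98, 10.2 and 0.909 CPM. Neutrophil markers were at 9.02 against 47.0 CPM, macrophage markers at 59.5 against 107 CPM, melanoma markers at 19.8 against 36.2 CPM, fibroblast markers at 21.6 against 31.9 CPM and pericyte markers at 54.1 against 81.8 CPM. Epithelial (170 against 655 CPM) and red cell markers (518 against 2276 CPM), which are abundant in free RNA, were lower in the double-positive cells, and at 170 and 590 CPM with Inhbb only. Taking all UMIs of these markers as free RNA gave an upper estimate of 4.17% of the UMIs of the double-positive cells and 17.8% of the reference, and with it subtracted 702 genes were higher and 1034 lower. Platelet markers were higher at 359 against 217 CPM, but 1 cell held 67.8% of those UMIs. Without barcodes that had 3 or more UMIs of any of these lists other than red cells, 31 double-positive cells stayed of 7186 (0.431%), with 711 genes higher and 1010 lower. Without the highest Scrublet doublet scores, which covered 5 of the 57 cells, 52 stayed and 692 genes were higher and 988 lower. Ribosomal protein genes took 9.58% of UMIs in double-positive cells and 7.79% in the reference, and mitochondrial genes 2.17% and 2.50%. With both kinds left out of the totals and the genes, 717 genes were higher and 960 lower, 654 and 907 of them shared with the counts above.

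Clustering of the 6 h endothelial cells, with Csf2 and Inhbb left out of the genes used, put 50 of the 57 cells (87.7%, 76.3 to 94.9%) in 1 of 22 clusters. That cluster had 303 cells, 2.86% of the total, of which 50 were double-positive, 163 had Inhbb only, 10 Csf2 only and 80 neither. Its leading genes were Csf2, Tubb6, Inhbb, Pdgfa, Myc, Fosl1, Noct, Tuba1c, Hbegf and Akap12, and the mean log2 ratio of its markers to all endothelial cells of the library was below 0 for each of the 5 vessel types, so it is left unnamed. The other 7 double-positive cells were spread over 6 clusters. With the gene lists of responses left out as well, 49 of the 57 still shared a cluster, then of 522 cells. The remaining 253 cells of the main cluster had levels between the reference and the double-positive cells for genes such as Fosl1 (172 CPM), Pdgfa (709 CPM) and the lower gene Clec14a (317 CPM). Over all 6807 genes 532 were at least 2-fold higher in them than in the reference and 616 at least 2-fold lower. Of these, 491 were among the 660 higher genes and 511 among the 922 lower genes, and both ratios share the reference.

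The same genes were then followed in cells with Inhbb but no Csf2, which every library held. At 6 h all 20 highest genes were at least 2-fold higher in these than in cells with neither gene of that library. Their log2 ratios ran from 1.43 to 3.07, with a median of 2.11. Of all 6807 genes 120 (1.76%) were so at 6 h, and this share was not computed in the other libraries. The 20 genes were chosen in the 6 h library against the same cells with neither gene, a choice that favours 6 h. In the control none of the 20 reached 2-fold on this scale, with a median of 0.30, and at 30 h 3 did (Tubb6, Tuba1c and Cd82), with a median of 0.54. Many of these genes were below 5 CPM there, so the scale understates their ratios: by CPM alone 7 of the 20 were at least 2-fold higher in the control, 20 at 6 h and 11 at 30 h. Tubb6, for example, was at 8.38 against 2.90 CPM in the control and 95.6 against 7.15 CPM at 6 h. Fosl1 was at 2.66 (2.45 to 2.89) at 6 h, 0.34 (-0.01 to 0.86) in the control and 0.02 (-0.11 to 0.38) at 30 h. The counting intervals at 6 h lay above those of the control for every one of the 20. The choice of genes at 6 h favours this, and the difference between libraries was not tested. At 6 h 163 of the 755 cells with Inhbb only were in the main cluster of the double-positive cells. Control and 30 h cells were not clustered, so the kinds of cells behind these sums were not matched between libraries. The aerocyte genes Car4 and Fibin, both among the 10 lowest genes, were by contrast lower in Inhbb cells in all 3 libraries. Car4 stood at -1.53 at 6 h, -1.48 in the control and -1.89 at 30 h, and Fibin at -1.77, -1.88 and -2.57. The other aCap markers were not followed in this way.

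**Figure D5:**
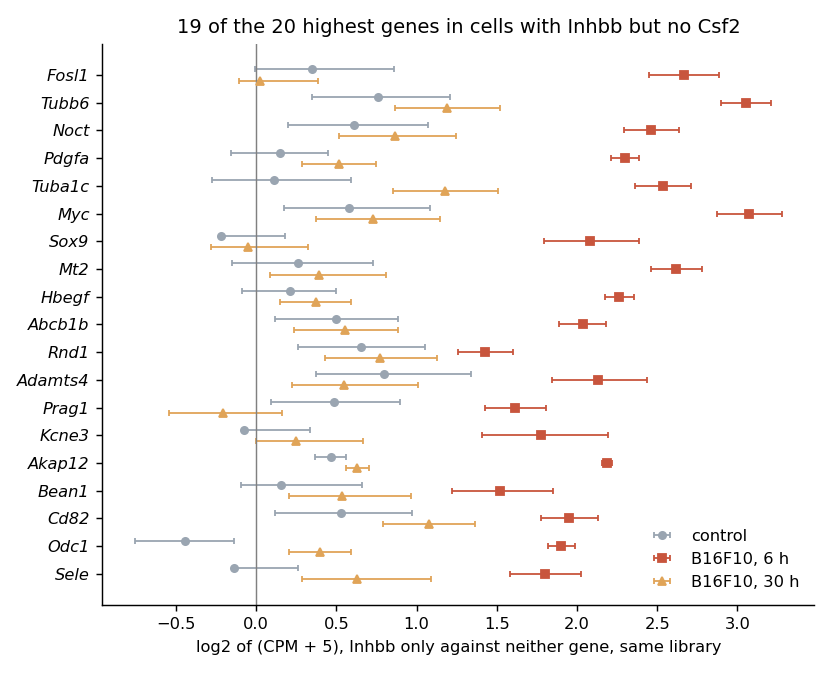
Log2 ratio of CPM + 5 between cells with Inhbb only and cells with neither gene of the same library for 19 of the 20 highest genes, with 95% counting intervals, in the control (circles), at 6 h (squares) and at 30 h (triangles). The 6 h values lie between 1.43 and 3.07, and no control value reaches 1 on this scale.

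The genes were also compared between libraries outside these cells. In endothelial cells with neither gene, the 660 higher genes had a median log2 ratio of 0.16 between 6 h and control, the 922 lower genes -0.10 and all 6807 genes 0.01. The 20 highest genes, which were chosen in the 6 h library, had log2 ratios of 0.08 to 0.71 there. Fosl1 was at 3.09 CPM at 6 h, 0.917 CPM in the control and 0.463 CPM at 30 h in those cells.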

How the data were processed

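The authors deposited counts of UMIs per gene and barcode for all barcodes (mm10; Cell Ranger 7.2.0 and Seurat 4.4.0 are named in the submitters' processing notes), not normalized. Groups came from the labels. Here UMIs were summed over cells of 1 library, scaled to CPM, and compared as log2 of CPM + 5 with exact conditional binomial 95% intervals, and shares got Clopper-Pearson intervals, in python 3.11.15 with numpy 2.4.6 and scipy 1.17.1. With 1 library per group no test was run. Clusters used scanpy 1.11.5 and leidenalg 0.10.2 (2000 variable genes, 30 components, 15 neighbours, resolution 1). Doublets were not removed in the values given first. Scrublet scores, at 0.8% of barcodes per 1000, defined an alternative. Code was tested on simulated data. The cells and the gene lists were chosen with earlier results of these data known. Named genes were the 20 highest and 10 lowest, the markers, and up to 4 members of each list with the ratio farthest from 0 and an interval beyond 0. Further list members named in the text were picked after their values were seen. The depth was 1688 to 18003 UMIs per double-positive cell. The text gives examples of the named genes, and 1 is not reported here. Alternatives covered depth, filters, scaling, pseudocount, limits on barcodes, doublets, RNA of other cells and reference cells.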

Additional observations from a re-analysis of the deposited data

Results flagged for a closer look

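Barcodes over 5000 genes were outside the comparisons, and at 6 h 21 of 1153 of them held both genes (1.82%, 1.13 to 2.77%), above the control with 1 of 1364 (0.0733%, 0.00186 to 0.408%). Their median depth was 31727 UMIs, 9 of the 21 had at least 100 UMIs of epithelial markers and 8 had at least 100 of macrophage and monocyte markers, and the part of these in the result was not tested.

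In barcodes with at most 50 UMIs, Csf2 was at 11.2 CPM (7.28 to 16.3) at 6 h, with 0 UMIs in the control (0 to 1.33), and Inhbb was at 18.9 CPM (13.7 to 25.3), against 2.89 CPM (1.25 to 5.70) in the control. Over all 6 h endothelial cells Csf2 was at 9.42 CPM (8.79 to 10.1) and Inhbb at 28.3 CPM (27.15 to 29.39). The part of free RNA in cells with a single Csf2 UMI was not tested.

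Some genes went in opposite directions between libraries when cells with Inhbb only were set against cells with neither gene, and these differences were not tested. The log2 ratio of Odc1 was 1.90 at 6 h and -0.45 in the control. Clec14a was at -0.37 at 6 h and 0.13 in the control, and Gprin3 at -0.26 at 6 h and 0.47 at 30 h. Gm4951 was at -0.24 at 6 h, 0.38 in the control and 0.20 at 30 h.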

How the results depend on the processing

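No paired analysis was possible because each group has 1 library. Under the alternatives of cells, reference, scaling and pseudocount the 20 highest genes were at least 2-fold higher, and 8 to 10 of the 10 lowest 2-fold lower. Limits on low levels do not change a ratio and so do not test these genes: 15 of the 20 were under 20 CPM in the reference and 6 had a mean under 100 CPM. The double-positive share at 6 h was 0.270% with cells thinned to 2000 UMIs and 0.293% with at least 2 UMIs of each gene, and at 30 h 0% under both. Lower genes numbered 1548 with a mean limit of 5 CPM, 1757 with no limit and 448 with at least 300 genes per barcode and no upper limit, which adds barcodes rich in other cells' markers. Chosen after seeing the data, a mean limit of 100 CPM tested 2112 genes and gave 270 higher and 307 lower, and a limit of 20 CPM on the reference alone gave 436 higher. Of the 10 lowest genes 8 rather than 5 were in order over the cell groups after thinning.

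Some named genes changed sign. Thinning gave log2 ratios of -2.29 for Gp9 and -0.15 for Ptges3, and the mean of each cell's CPM gave -0.29 for Pf4. The wide limits on genes per barcode gave -0.11 for Vcam1, -0.033 for Itga2b, -0.44 for Pf4, 4.22 for Lyz2, 0.25 for Scgb1a1, 0.84 for Hbb-bt, 1.03 for Hbb-bs, 1.05 for Hba-a1, 4.36 for Sftpc, 1.15 for Hba-a2 and 0.60 for Ccl21a. At least 2 UMIs of each gene gave -1.06 for Ppbp, -0.34 for Cxcl10, -0.82 for Gp9, -0.54 for Cd74 and -0.61 for Pf4. Without RNA of other cells Itga2b was at -0.31, and with free RNA subtracted Lyz2 was at 1.27. With the gCap reference, also chosen after seeing the data, Scgb1a1 was at 0.40 and Slc6a2 at 0.046, and with the double-positive cells of the main cluster alone, chosen likewise, Ppbp was at -0.81, Itga2b at -0.29, Gp9 at -0.56 and Pf4 at -1.01. The causes were not tested.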
